A study of Mus musculus with 12 samples.

Results

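E proteins are transcription factors of the basic helix-loop-helix family and Id proteins are their inhibitors. The 7 genes described here are *Tcf3*, *Tcf4* and *Tcf12*, which encode the E proteins E2A, E2-2 and HEB, and *Id1*, *Id2*, *Id3* and *Id4*. They were taken as a list from the 41444 genes of the expression table, chosen with earlier results of these data known. The 2 groups compared are *BCR*–*ABL1* transformed *Ctnnb1* fl/fl pre-B cells from mouse bone marrow that carry the ERT2 vector, without and with LY2090314, a GSK3β inhibitor, with 3 samples each. All 6 samples received 4-OHT at 1 µM for 2 days, which leaves β-catenin intact because the ERT2 vector holds no Cre, and the treated samples received LY2090314 at 40 nM for 1 day, although a figure legend of the study gives a shorter exposure. The cells were expanded with IL7, transformed by retrovirus in culture and kept without IL7 afterwards, and the legend describes the 3 samples of a group as separate mice. The ages of the mice are not given in the sources used here.

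E proteins bind DNA as dimers at E-boxes, short sites with the letters CANNTG. Id proteins carry the helix-loop-helix that lets them pair with E proteins but lack the basic region that contacts DNA, so that a dimer with an Id protein does not bind. In early B cell development E2A works together with Ebf1 and Foxo1 to switch on genes of the pre-B cell receptor and of immunoglobulin gene recombination, and Id proteins hold this activity in check. *Tcf4* here is the E protein gene and not *Tcf7l2*, the β-catenin partner that is also known as TCF4.

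The members lie on 7 chromosomes of GRCm38 (GENCODE vM21). *Tcf3* (ENSMUSG00000020167) spans chr10:80409514-80433647 on the minus strand and *Tcf12* (ENSMUSG00000032228) spans chr9:71842688-72111871 on the minus strand. *Tcf4* (ENSMUSG00000053477) lies on the plus strand of chromosome 18. *Id2* (ENSMUSG00000020644) lies at chr12:25093799-25097140 on the minus strand and *Id3* (ENSMUSG00000007872) at chr4:136143497-136145755 on the plus strand. *Id1* (ENSMUSG00000042745) lies at chr2:152736251-152737410 and *Id4* (ENSMUSG00000021379) at chr13:48261228-48266026, both on the plus strand. With 62, 21 and 14 annotated transcripts, *Tcf4*, *Tcf12* and *Tcf3* are the members with the most forms, and the table gives 1 value for each gene, so that forms started at different promoters of *Tcf12* or spliced forms of *Tcf3* cannot be told apart.

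Promoter sequence is shown for *Tcf12* and *Id2*, the members that rose with LY2090314, and for *Tcf3*, which fell, because E proteins act through E-boxes. Windows of 250 bases before to 50 bases after a gene start (RefSeq, GRCm38.p6) were found for 5 of the 7 members, and only bases outside annotated untranslated regions are printed. The stretches are chr9:72111872-72112069 for the most upstream start of *Tcf12*, chr12:25096254-25096342 for *Id2* and chr10:80433648-80433885 for *Tcf3*, each read 5′ to 3′ on the minus strand, with every E-box (CANNTG, which reads the same on both strands) in capitals. The *Id2* stretch lies inside the annotated span of its gene, whereas those of *Tcf12* and *Tcf3* lie outside theirs.

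*Tcf12*: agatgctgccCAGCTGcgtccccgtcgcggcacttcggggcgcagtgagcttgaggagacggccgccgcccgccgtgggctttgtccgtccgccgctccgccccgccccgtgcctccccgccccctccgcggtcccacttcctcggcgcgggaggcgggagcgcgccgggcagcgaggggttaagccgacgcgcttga

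*Id2*: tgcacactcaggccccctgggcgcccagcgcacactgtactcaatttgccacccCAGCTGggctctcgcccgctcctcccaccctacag

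*Tcf3*: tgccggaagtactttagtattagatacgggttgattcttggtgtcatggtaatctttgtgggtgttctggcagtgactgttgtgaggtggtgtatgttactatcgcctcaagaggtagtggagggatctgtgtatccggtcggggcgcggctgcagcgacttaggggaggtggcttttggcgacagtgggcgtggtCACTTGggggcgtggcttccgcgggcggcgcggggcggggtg

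The printed stretches of *Tcf12* and *Id2* hold the same E-box, CAGCTG, which 16.3% of all 32851 promoter windows contain, and *Tcf3* holds CACTTG. *Tcf12* has further windows at chr9:72111152-72111451 and chr9:71896047-71896346, which are not printed. They had 2 and 1 E-boxes, none of them CAGCTG. An E-box of any kind is in 72.3% of all windows. The *Id3* window overlaps an annotated untranslated region, is not printed and contains no E-box. The letters CTTTGA, a core of sites for TCF and LEF factors searched on both strands, are in 16% of all windows and the letters GGGAA, a core of Ikaros sites searched on both strands, are in 62.7%. Neither CTTTGA nor GGGAA was in a window of *Tcf12*, *Id2*, *Id3* or *Tcf3*. The related form CTTTGT was not searched, and its share of all windows is unknown. It can be read in the printed stretches of *Tcf12* and *Tcf3*, so that a lack of CTTTGA is not a lack of every such core. The *Id4* window had 1 match to CTTTGA, 2 matches to GGGAA and no E-box. These matches describe the letters only.

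Expression was given as regularized log2 (rlog) values, in which the authors corrected read counts for library size and shrank weakly expressed genes to their average over samples. This understates the differences of such genes, and the depth of each library is unknown, since the table holds no counts. Between libraries of a group, the SD of the difference across the 11536 genes tested was 0.185 to 0.253, and between groups it was 0.581 to 0.622. A pair of treated columns shares a library number (treated samples 1 and 2, SD 0.186), and both were counted. Their names carry the letters A and B after this number. Whether the pair comes from separate mice, as the legend describes, cannot be told from the names. The labelled cell type fitted its markers in that all 8 pre-B markers, which include *Ebf1* and *Pax5*, were expressed, with rlog values of 5.73 to 14.47. Of the T cell markers, *Cd3e*, *Cd3g*, *Cd3d*, *Cd4* and *Cd8a* were below 0 in every sample, whereas *Lck* was expressed.

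The members did not move together with LY2090314. *Tcf12* and *Id2* rose, *Id3* fell by a similar size, *Tcf3* and *Tcf4* fell by less, and *Id1* was under the limit on the mean and *Id4* was listed at 0 in both groups. All 5 members with a mean of at least 3, the limit for testing, passed an adjusted p of 0.05 in limma, where 50.1% of all 11536 genes did, so that passing the threshold by itself does not set the members apart. The 2 that rose compare with 24.8% of all genes and the 3 that fell with 25.3%. Of the 5 members, 3 also differed by 1 log2 unit or more, against 6.01% of all genes, with *Tcf12* and *Id2* higher (4.14% of all genes) and *Id3* lower (1.86%). As the members were chosen with earlier results of these data known, these shares are descriptions and no test. The groups did not overlap in any of the 5, nor in 58.6% of all genes. For each of the 5, p was 0.10 in an exact permutation test (two-sided), the smallest value that 3 samples against 3 allow. The p-values measure the spread between these samples.

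**Figure D1:**
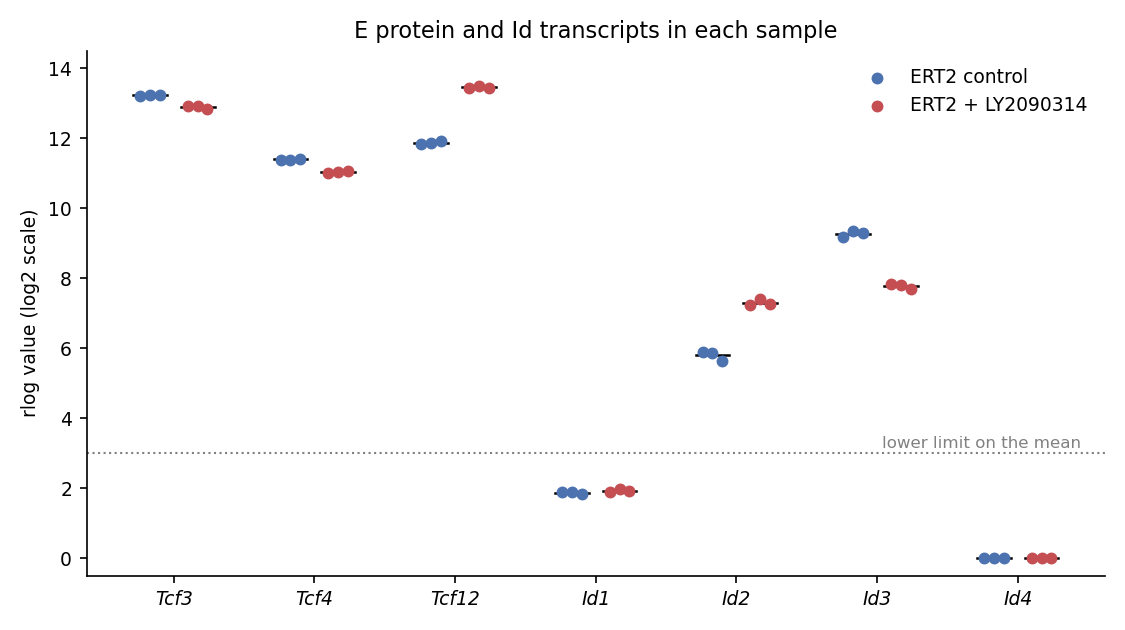
Regularized log2 (rlog) values of the 7 genes in the 3 ERT2 control samples (blue) and the 3 ERT2 samples with LY2090314 (red); each point is 1 sample, short lines are group means and the dotted line is the lower limit of 3 on the mean. *Tcf12* and *Id2* are higher and *Id3* lower in every treated sample, *Tcf3* and *Tcf4* are lower by less, and *Id4* is at 0 throughout.

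*Tcf12*, whose product HEB forms dimers with E2A and is known for its role in lymphocyte development, showed the largest rise among the members. Its rlog values were 11.83, 11.85 and 11.91 in the control samples and 13.44, 13.48 and 13.45 in the treated samples. Every treated sample was more than a full log2 unit above every control sample, and the samples within a group were nearly equal. The mean went from 11.86 ± 0.039 to 13.46 ± 0.025 (SD, n = 3 each), a rise of 1.59 log2 units (standard error 0.046, 95% confidence interval 1.49 to 1.70, adjusted p = 1.87e-07 from limma), which is 3.02-fold on the linear scale. This rise ranked 205 among the 11536 genes. No annotated exon of another gene overlaps the exons of *Tcf12*. Of the small genes inside its span, only *Gm38057* and *Rpl15-ps2* were above the limit on the mean, and the others were not tested. *Gm38057*, on the same strand, passed the threshold, with a rise of 0.94 (adjusted p = 0.00329, limma) from a mean rlog value of 3.62 to 4.55. *Rpl15-ps2*, on the opposite strand, did not pass (adjusted p = 0.424, limma).

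*Tcf3* encodes E2A, the E protein needed for commitment to the B lineage. Its rlog values were 13.21, 13.24 and 13.25 in the control samples and 12.92, 12.91 and 12.85 in the treated samples. All treated samples were lower than all control samples by a small margin. The difference was −0.34 (standard error 0.048, 95% confidence interval −0.45 to −0.23, adjusted p = 0.000692 from limma), 1.27-fold lower on the linear scale.

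*Tcf4* encodes E2-2, known best for its role in plasmacytoid dendritic cells and also expressed in B cells. Its rlog values were 11.38, 11.38 and 11.41 in the control samples and 11.00, 11.03 and 11.07 in the treated samples, again without overlap. *Tcf4* fell by 0.36 (standard error 0.044, 95% confidence interval −0.46 to −0.26, adjusted p = 0.000304 from limma). The intervals of *Tcf3* and *Tcf4* overlap, and their falls ranked 1969 and 1778 among all genes, so that neither was among the larger falls. The E protein genes thus moved in opposite directions, 1 up and 2 down.

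*Id3*, the Id gene with the highest level in control cells, encodes an inhibitor that restrains E2A in lymphocytes and is itself induced by receptor signals. Its rlog values were 9.19, 9.34 and 9.29 in the control samples and 7.84, 7.80 and 7.68 in the treated samples. Treated samples were lower throughout, by over a log2 unit. The mean went from 9.27 ± 0.077 to 7.77 ± 0.082 (SD, n = 3 each), a difference of −1.50 (standard error 0.075, 95% confidence interval −1.67 to −1.33, adjusted p = 2.66e-06 from limma), which is 2.83-fold lower on the linear scale and ranked 64 among the falls of all genes.

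*Id2* encodes the inhibitor that marks natural killer and innate lymphoid cells and is low in early B cells. Its rlog values were 5.90, 5.85 and 5.64 in the control samples and 7.24, 7.40 and 7.27 in the treated samples. The treated samples were higher throughout, and control sample 3 was the lowest of all. *Id2* rose by 1.51 (standard error 0.10, 95% confidence interval 1.27 to 1.74, adjusted p = 1.35e-05 from limma), 2.84-fold on the linear scale, which ranked 226 among the rises. The markers of natural killer and innate lymphoid cells stayed low: all 5 were under the limit on the mean, *Ncr1* and *Zbtb16* were listed at 0 in all 6 samples, and the summed linear level of the other 3 was 12.5 to 14.4 in control and 13.3 to 18.5 in treated samples.

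*Id1*, an Id gene that responds to BMP signals, had rlog values of 1.89, 1.90 and 1.83 in the control samples and 1.90, 1.98 and 1.92 in the treated samples. The groups overlap, and the mean lies under the limit, so that *Id1* was not tested with the others. Without a lower limit its difference was 0.06 (95% confidence interval −0.04 to 0.17, adjusted p = 0.352 from limma over 19658 genes). *Id4* was listed at 0 in all 6 samples, as were 21786 genes of the table in all, among them *A330033J07Rik*, which overlaps *Id4* on the other strand, and it gives no comparison.

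**Figure D2:**
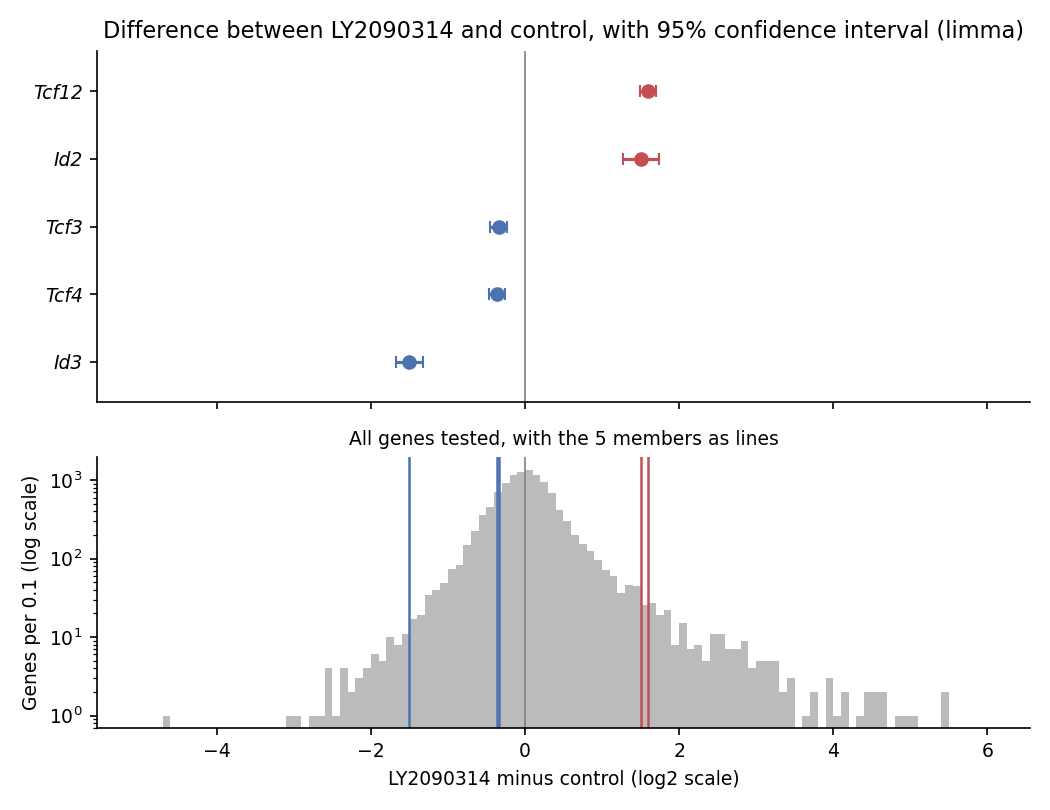
Upper panel, log2 difference between LY2090314 and control for the 5 members tested, with the 95% confidence interval from limma; lower panel, number of all 11536 genes per 0.1 of log2 difference on a log axis, with the members as lines. *Tcf12* and *Id2* (red) lie at 1.59 and 1.51 and *Id3* at −1.50, in the sparse flanks of the distribution. *Tcf3* and *Tcf4* lie nearer its centre, at −0.34 and −0.36, with falls ranked 1969 and 1778 among the 11536 genes.

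To compare levels between genes, linear values (2 to the power of the rlog value) were divided by the exon length of each gene in kilobases. With the union of all exons as length, the level per kilobase in control samples was 2385 ± 29.7 for *Tcf3*, 346 ± 18.3 for *Id3*, 240 ± 6.49 for *Tcf12*, 98.3 ± 1.16 for *Tcf4* and 22.8 ± 2.14 for *Id2* (SD, n = 3 each). Neighbours in this order were apart by more than their spread. With LY2090314 the level per kilobase was 1886 ± 53.5 for *Tcf3*, 724 ± 12.4 for *Tcf12*, 122 ± 6.85 for *Id3*, 76.5 ± 2.03 for *Tcf4* and 64.8 ± 3.72 for *Id2*. *Tcf12* and *Id3* thus changed places. This order depends on the length chosen, since the exons of *Tcf4* and *Tcf12* add up to 27.4 and 15.5 kb but their longest transcripts to 8.58 and 6.30 kb. With the longest transcript, *Tcf12* was above *Id3* already in control samples (592 ± 16 against 485 ± 26 per kilobase), and *Tcf4* was above *Id3* with LY2090314 (244 ± 6.5 against 171 ± 9.6).

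Of the summed E protein level per kilobase, *Tcf12* made up 8.81% ± 0.15 in control samples and 27.0% ± 0.57 with LY2090314, *Tcf3* went from 87.6% ± 0.16 to 70.2% ± 0.68, and *Tcf4* from 3.61% ± 0.034 to 2.85% ± 0.13 (SD, n = 3 each). *Tcf3* remained the most abundant E protein transcript in every sample under both lengths. With the longest transcript the share of *Tcf12* went from 14.2% ± 0.22 to 38.7% ± 0.63. Of the summed level of *Id2* and *Id3*, *Id2* made up 6.21% ± 0.72 in control samples and 34.7% ± 1.7 with LY2090314, and with the longest transcript 5.53% ± 0.65 and 31.9% ± 1.6. *Id3* was still the larger of the pair in every treated sample.

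The summed E protein level hardly moved, from 2723 ± 36 to 2686 ± 55 per kilobase, a ratio of 0.986, and the direction turned with the longest transcript, to a ratio of 1.11. The summed Id level went from 369 ± 18 to 187 ± 8.1, a ratio of 0.508 (0.491 with the longest transcript). On the log2 scale the Id sum over the E protein sum was −2.94, −2.82 and −2.90 in control samples and −3.84, −3.82 and −3.88 in treated samples. The balance was lower in every treated sample, with a mean difference of −0.96, or −1.17 with the longest transcript. These are descriptions of transcript levels, and protein was not measured.

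**Figure D3:**
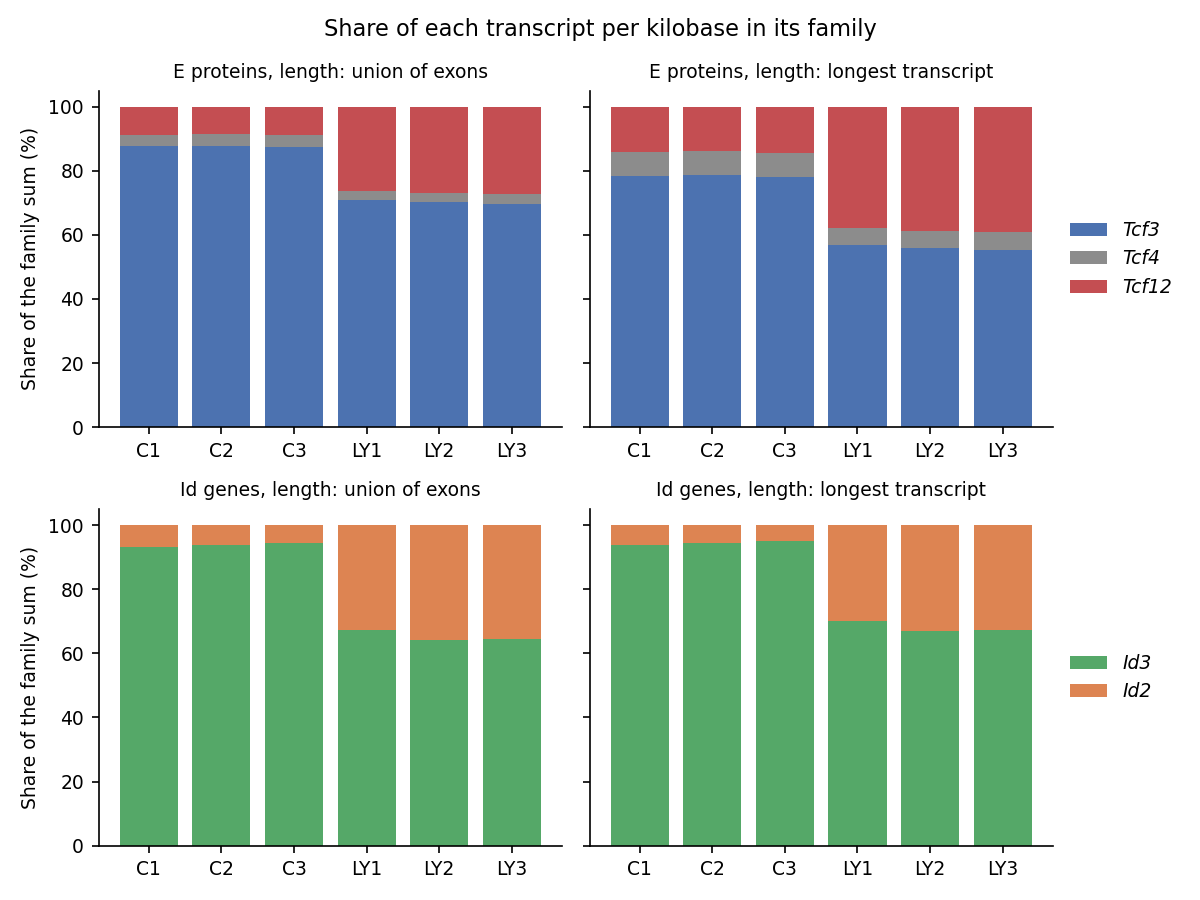
Share (%) of each transcript per kilobase in the sum of its family in the 3 control samples (C1 to C3) and the 3 treated samples (LY1 to LY3), for E proteins (upper) and for *Id2* and *Id3* (lower), with the union of exons (left) or the longest transcript (right) as length. *Tcf12* and *Id2* take a larger share in every treated sample under either length, and *Tcf3* and *Id3* remain the largest of their family.

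The genes whose pattern over the 6 samples lay closest to that of *Tcf12*, by Euclidean distance of values centred on the mean of each gene, were *Etv5*, an ETS transcription factor, *Tent5a* and *Asb10*, at distances of 0.074, 0.080 and 0.086 on the log2 scale. *Etv5* rose by 1.64, from a mean rlog value of 11.88 to 13.52, whereas *Tent5a* and *Asb10* were near the lower limit, with control means of 3.37 and 2.59. Closest to *Id3* were *Trp53i11*, *Grn*, the progranulin gene, and *Gab1*, a signalling adaptor, at distances of 0.14, 0.15 and 0.16. Their differences were −1.50, −1.52 and −1.42. With 6 samples in 2 groups, this measure mostly finds genes with a difference of the same size.

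Genes around the E proteins were described by 6 lists with 77 genes, of which 56 had a mean of at least 3. Of these, 16 rose and 23 fell past the threshold, or 69.6%, against 50.1% of all genes, and their median log2 difference was −0.05, against 0.01 over all genes. The lists were also chosen with earlier results of these data known, so that their shares are descriptions.

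B-lineage genes that E proteins are known to activate, many of them together with Ebf1 and Pax5, mostly fell. Of 17, all tested, 10 fell, 4 rose and 3 did not pass, with a median log2 difference of −0.40. The share past the threshold was 82.4%, against 50.1% of all genes, of which 25.3% fell and 24.8% rose. The recombination genes *Rag1* and *Rag2* had log2 differences of −1.93 and −1.81 (adjusted p = 1.47e-05 and 4.07e-06, limma). *Igll1*, *Vpreb1* and *Vpreb2*, which encode the surrogate light chain, had differences of −1.42, −1.27 and −1.17, and *Pax5*, the factor that maintains B cell identity, of −1.54 (highest adjusted p of these 4 genes 9.79e-06, limma). *Cxcr4*, the receptor that keeps B cell precursors in the bone marrow, rose by 1.09 (adjusted p = 6.66e-07, limma). *Cd79a* and *Pou2af1* had the highest means of the list over the 6 samples. They differed by 0.23 and −0.06 and did not pass (adjusted p = 0.0527 and 0.396, limma). In control samples alone, *Pax5* was level with them, with a mean rlog value of 14.05 against 14.04 and 14.01. The 8 pre-B markers all belong to this list, and 7 of them fell. Their summed linear level was 74004 to 75664 in control and 47913 to 53118 in treated samples. In RNA of whole cultures, fewer cells of a type and less RNA per cell cannot be told apart. Of 5 plasma cell markers 3 rose, *Xbp1*, *Irf4* and *Jchain*, *Sdc1* fell, and *Tnfrsf17* was below 0. Their summed level was 9393 to 9615 in control and 23975 to 25167 in treated samples. This sum rests mostly on *Irf4* and *Xbp1*. Their mean rlog values were 12.75 and 11.19 in control and 14.16 and 12.57 in treated samples, whereas *Jchain* was at 4.34 and 4.65. Of 5 myeloid markers, *Lyz2* alone was above the limit and rose by 0.53 (adjusted p = 0.0023, limma), *Mpo* and *Elane* were listed at 0, and the summed level of the others was 54.9 to 63.6 in control and 81.9 to 89.0 in treated samples, while none of 4 erythroid markers was above it. The T cell marker *Lck* rose by 0.95 (adjusted p = 2.17e-05, limma). The part of these marker lists in the member differences was not tested.

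Among 5 genes of proliferation and lineage choice that respond to E proteins, 4 were tested, of which 2 rose and 2 fell (50.1% of all genes passed in either direction). *Ccnd3*, the D-type cyclin of pre-B cells, fell by 1.09 (adjusted p = 3.19e-05, limma), and *Cdk6*, its partner kinase, rose by 0.65 (adjusted p = 0.000328, limma).

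Of 15 tissue-restricted partners of E proteins and helix-loop-helix repressors, 6 were tested, of which 3 rose and 1 fell, or 66.7% against 50.1% of all genes, with a median of 0.18. *Bhlha15*, a partner known from secretory cells, rose by 1.31 (adjusted p = 4.87e-06, limma), and *Hes1*, a repressor downstream of Notch, fell by 1.00 (adjusted p = 0.000389, limma). The highest of the list were *Hes6*, which rose by 0.25 (adjusted p = 0.00274, limma), and *Lyl1*, which differed by −0.02 and did not pass (adjusted p = 0.761, limma). *Tal1*, the other haematopoietic partner, was under the limit.

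Of 16 cofactors of E proteins and repressors that compete for E-boxes, 11 were tested, with 3 higher and 3 lower, or 54.5%, near the 50.1% of all genes, and a median of 0.15. *Lmo2*, a bridging protein that joins bHLH dimers to Ldb1, had rlog values of 8.27, 8.13 and 8.47 in the control samples and 10.01, 9.99 and 10.11 in the treated samples. It rose by 1.75 (adjusted p = 3.37e-06, limma), while *Ldb1* fell by 0.25 (adjusted p = 0.00379, limma). *Zeb2*, an E-box binding repressor, fell by 1.07 (adjusted p = 1.59e-05, limma), and the coactivator *Ep300* rose by 0.22 (adjusted p = 0.0175, limma), a call that was lost without control sample 3, treated sample 1 or treated sample 2 (adjusted p = 0.0506, 0.0655 and 0.0522, limma) and with the treated columns of a shared library number counted as 1 sample (adjusted p = 0.0556, limma).

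Of 19 genes of the BMP, TGFβ and Egr signals that act on Id genes, 13 were tested, with 4 higher and 2 lower, or 46.2%, near the 50.1% of all genes. Among these calls, those of *Bmpr1a* (higher, with overlapping groups) and *Acvr1* (lower) were lost in several settings. These settings included the treated columns of a shared library number counted as 1 sample. *Smad3*, which relays TGFβ signals, had rlog values of 6.52, 7.29 and 6.91 in the control samples and 8.64, 8.79 and 8.69 in the treated samples. It rose by 1.80 (adjusted p = 0.000104, limma). The receptor gene *Tgfbr2* rose by 0.82 (adjusted p = 3.14e-06, limma), and *Smad4*, the shared partner of SMAD factors, differed by 0.08 and did not pass (adjusted p = 0.197, limma).

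Genes that control the turnover of E and Id proteins fell, 5 of 5, by 0.24 to 0.50 with a median of −0.43, where 25.3% of all genes fell. *Usp1*, which removes ubiquitin from Id proteins, fell by 0.43 (adjusted p = 0.000142, limma). *Fzr1*, an activator of the ubiquitin ligase that targets Id proteins, fell by 0.24 (adjusted p = 0.0183, limma), a call that was lost without treated sample 1 or 2 (adjusted p = 0.0584 and 0.0652, limma) and with the treated columns of a shared library number counted as 1 sample (adjusted p = 0.0592, limma), so that 4 of the 5 passed there.

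**Figure D4:**
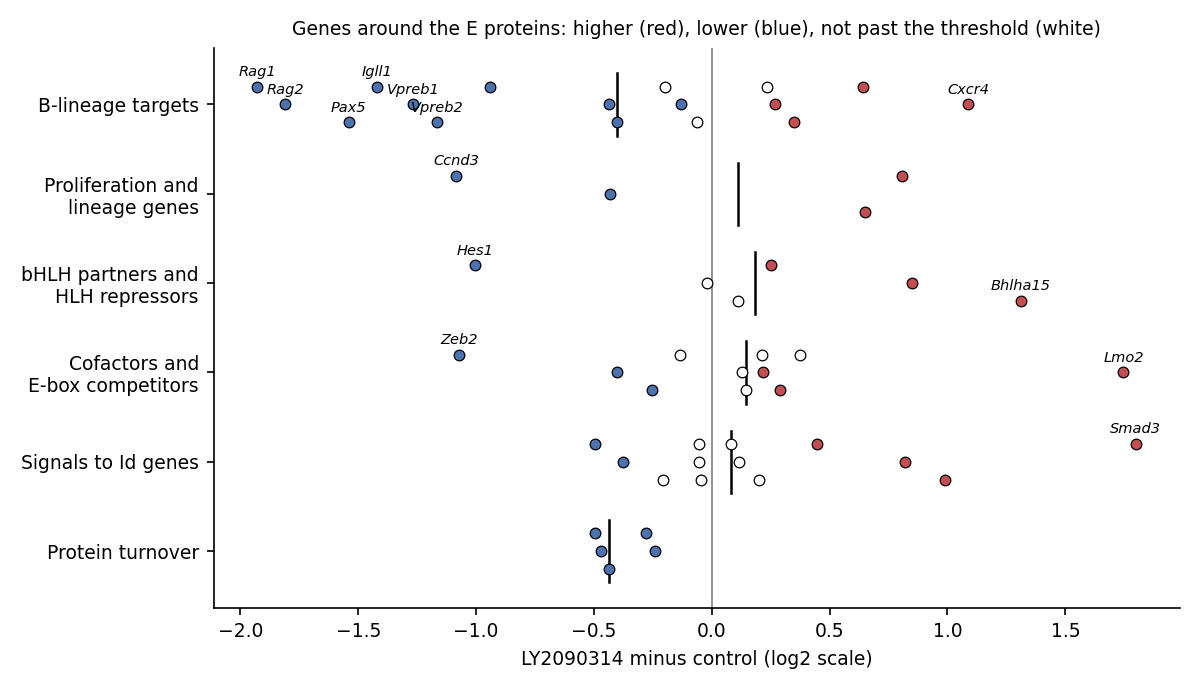
Log2 difference between LY2090314 and control of the 56 genes tested in the 6 lists; each point is 1 gene, red where higher and blue where lower past the threshold and white where not, with the list median as a vertical line and names for differences of at least 1. The B-lineage targets lie mostly on the lower side, with *Rag1* lowest and *Cxcr4* highest, and all 5 turnover genes are lower, of which *Fzr1* does not pass in every setting.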

How the data were processed

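RNA-seq of mouse B-ALL cells was analysed from 1 deposited table of 41444 genes. According to the labels and the study's methods, the authors made stranded libraries of polyadenylated RNA, sequenced paired ends, quantified transcripts with Salmon 1.4.0, aligned reads to GRCm38 with STAR and GENCODE vM24, used DESeq2 1.30.1, and deposited log2 values, named as rlog. Which samples entered the rlog and with which options is not given in the sources used here. Depth is unknown, so that no counting interval or floor is given. Of 12 columns, 6 were assigned to a group by name, 3 to ERT2 and 3 to ERT2 with LY2090314. The other 6 columns, whose names combine Cre and LY and fit no single labelled group, were used in no step. Sample numbers follow the order of the columns.

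Gene symbols were found for 41157 identifiers, and positions come from GENCODE vM21. Genes with a mean of at least 3 over the 6 samples entered a comparison of both groups in R 4.3.3 with limma 3.58.1 (lmFit and eBayes with a mean-variance trend, two-sided, Benjamini-Hochberg adjustment over all genes tested). The threshold was an adjusted p of 0.05, and no block, batch or other covariate was used. The count model that the study's methods name cannot be run on log2 values. The calculation was tested on simulated data. The genes named are all 7 members, list genes past the threshold that differed by 1 log2 unit or more, the 2 genes with the highest mean in each list, the 3 nearest genes by pattern to the largest rise and the largest fall, and overlapping genes. *Gm38057*, *Rpl15-ps2* and the marker genes with values were named in addition, after their values were seen. The values of 1 list gene, which is counted in its lists, are not reported here. Members and lists were chosen with earlier results of these data known.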

Additional observations from a re-analysis of the deposited data

How the results depend on the processing

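All 5 members kept their direction and an adjusted p under 0.05 in limma without the mean-variance trend, without a lower limit on the mean, with a limit of 5, with median centring, with quantile normalization, with each sample left out, with the treated columns of a shared library number counted as 1 sample, and at a threshold of 0.01. When any 1 of the 6 samples was omitted, the log2 difference lay between 1.58 and 1.62 for *Tcf12*, 1.43 and 1.56 for *Id2*, −1.54 and −1.45 for *Id3*, −0.35 and −0.32 for *Tcf3*, and −0.38 and −0.34 for *Tcf4*, and the highest adjusted p was 0.0062, for *Tcf3*. Requiring a log2 difference of at least 1 left 3 members, 13 of the 39 list genes called and 693 of the 5778 genes called, by its construction. With each sample left out, 34 to 41 list genes and 4741 to 6225 genes passed. The log2 balance of Id over E proteins, −0.96, became −1.17 with the longest transcript as length and −0.98 to −0.93 with each sample left out. The cause was not tested beyond the change of lengths. Calls among the list genes that changed with the setting included those of *Bmpr1a*, *Acvr1*, *Ep300* and *Fzr1*, which were lost in at least 1 setting, and *Cd79a*, *Pou2af1*, *Vpreb3*, *Crebbp*, *Cbfa2t3* and *Tgfbr1*, which were gained in at least 1. No paired analysis was possible because numbers in the table's header cannot be tied to the replicate numbers of the titles. As the depth is unknown, what it limits was not assessed, and *Id1* lies where the rlog shrinkage is strong.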
